A study of Homo sapiens with 4 samples.

Results

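The genes described here are 44 enzymes and partner proteins that write, remove or read methyl groups on histones and DNA, chosen by symbol as Polycomb proteins, lysine methyltransferases, lysine demethylases, DNA methyltransferases with UHRF1, and TET dioxygenases. All 44 were found among the 58233 genes of the deposited count table, and all 44 had enough counts to be tested. RNA-seq was done on MCF10AT, a line of human breast epithelial cells derived from MCF10A that carries activated HRAS. The 4 libraries form 2 groups of 2 replicates: cells whose genotype is given as Bromo+/-, a name that the labels do not spell out, and a non-target control. The growth medium was the same for both groups and held hydrocortisone, cholera toxin, insulin, EGF and horse serum. The labels' protocols describe lentiviral shRNA transduction and puromycin selection for knockdowns, and do not say which of these 4 samples went through it. No label says that the replicates were separate cultures, and the column names share a number within each group, so each group may be 1 clone and p-values here reflect the spread among these libraries only, which may be technical.

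Histone lysine methylation marks chromatin by position: methylation of H3K4 and H3K36 accompanies active genes, and methylation of H3K9 and H3K27 accompanies silent ones. Polycomb repressive complex 2 (PRC2) methylates H3K27 and Polycomb repressive complex 1 (PRC1) ubiquitinates histone H2A. DNA methylation at CpG is set by DNMT3A and DNMT3B, copied after replication by DNMT1 with UHRF1, and oxidised by the TET enzymes. These systems are known for holding cell identity, and in mammary epithelium Polycomb and DNA methylation are known to silence lineage genes.

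The libraries held 10835237 to 11975396 counts, and 4.21% to 5.18% of these were mitochondrial. EP300, the gene named in the title of the series, was called higher and not lower in the group labelled Bromo+/- (log2 fold change 0.19, adjusted p = 0.00701, edgeR). It stood at 121 and 126 CPM (counts relative to library size, with TMM scaling) against 106 and 111 CPM in the controls. Directions below therefore rest on the group labels alone. All 11 tested genes of a list of 12 mammary epithelial markers were lower in the libraries labelled Bromo+/-, with summed levels of 1804 and 1745 CPM against 12460 and 12010 CPM, and KRT14 was at 0 in both. Of 10 fibroblast markers 4 were tested, of which 3 were higher and 1 lower, and the list summed to 141 and 140 CPM against 43.5 and 41.7 CPM, with COL3A1 and LUM at 0 in all 4 libraries. All 3 tested of 8 leukocyte markers were lower, and that list summed to 7.66 and 6.56 CPM against 25.5 and 25.3 CPM. Of 7 endothelial markers 3 were tested and 2 were higher, with sums of 18.1 and 15.2 CPM against 12.3 and 11.7 CPM. Of 6 smooth muscle and myoepithelial markers 4 were tested and 2 were higher, with sums of 20.6 and 18.5 CPM against 11.9 and 12.4 CPM. The leukocyte markers CD3E and MS4A1, the endothelial markers VWF and TIE1, and CNN1 of smooth muscle were at 0 in all 4 libraries. The part of this marker shift in the results below was not tested, and in bulk RNA fewer cells of a type and less RNA per cell cannot be told apart.

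By the quasi-likelihood test of edgeR, with a threshold of 0.05 on the adjusted p, 25 of the 44 genes were called (56.8%), against 53.5% of all 13179 genes tested. Higher levels in the libraries labelled Bromo+/- were called for 14 (31.8%, against 26.4% of all genes) and lower levels for 11 (25.0%, against 27.1%). These shares lay near the background and are no result about the set. Calls in single roles and lists below rest on few genes and are no result about a role or list. With the DESeq2 Wald test 10 members (22.7%) were called, against 37.1% of all genes. TET1 passed the filter on low counts only through the group where it was high, and without it 13 of 43 were higher and 11 lower. With library size alone as the scaling, which shifts the median of all genes by 0.08 on the log2 scale, 19 members were higher and 7 lower, against 4433 and 2794 of all genes. The median log2 fold change was 0.04 over the members and 0.01 over all genes, and the median size of a change, its sign set aside, was 0.18 against 0.28. A called change of at least 2-fold was found for 4 members (9.09%), against 15.0% of all genes. The groups did not overlap for 33 members (75.0%), against 75.2% of all genes. Values below are CPM, counts relative to library size with TMM scaling, and a positive log2 fold change, given with its standard error (SE), means a higher level in the group labelled Bromo+/-.

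**Figure D1:**
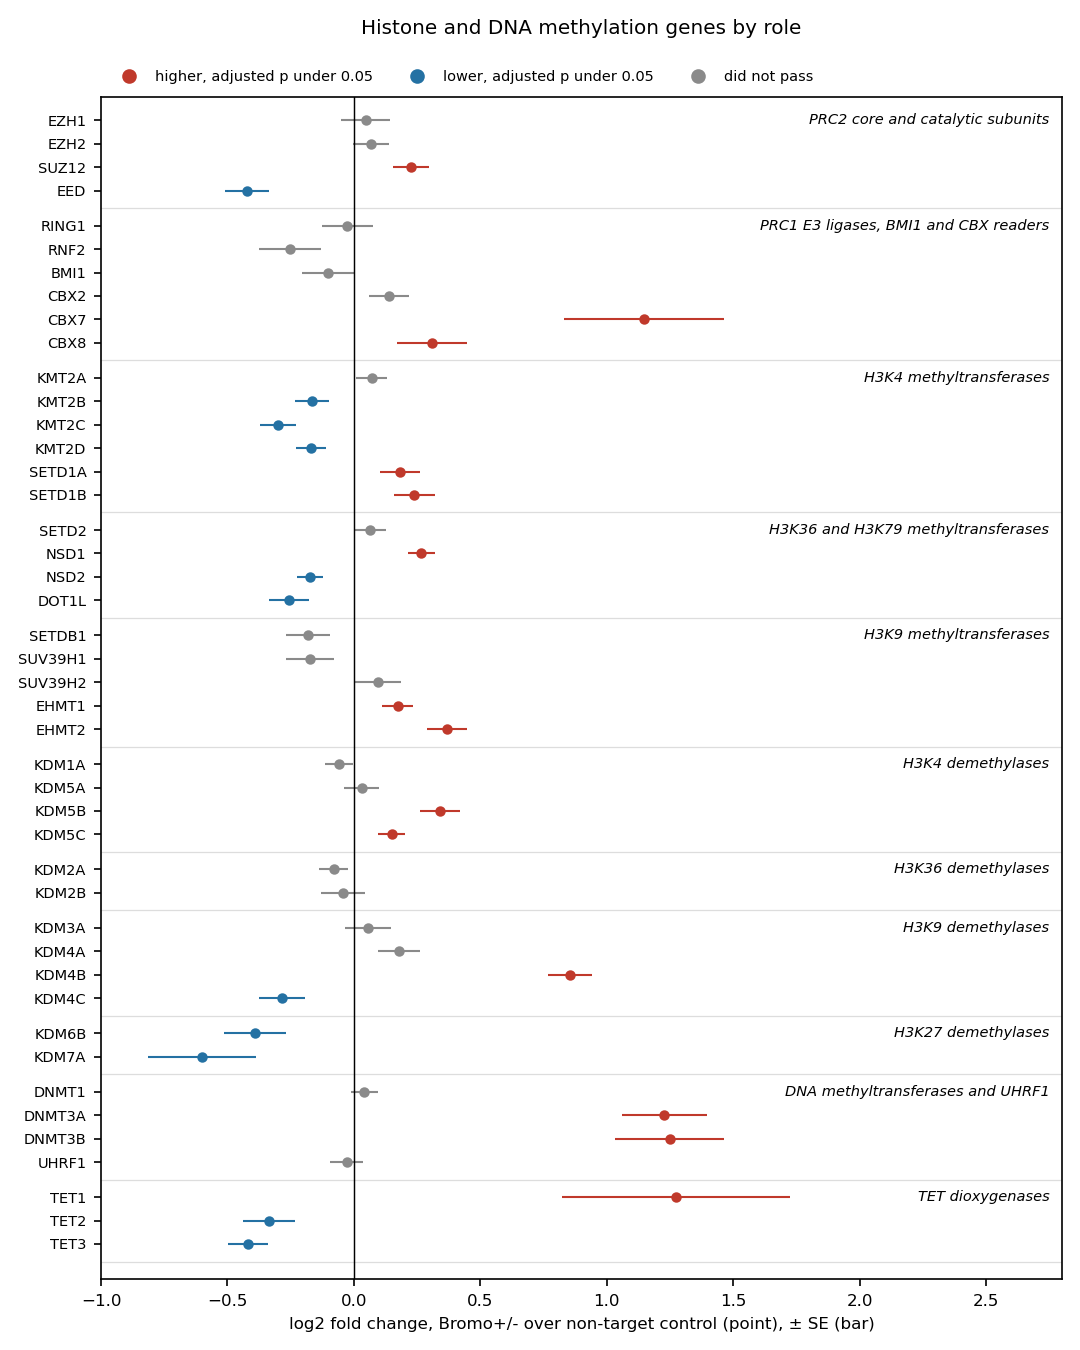
Log2 fold change (x axis, libraries labelled Bromo+/- over control) of each of the 44 genes (y axis, grouped by role), with bars of ± 1 SE from the fitted model and colour for the call. The values of DNMT3A, DNMT3B, TET1 and CBX7 lie beyond 1 on the log2 scale, and most other genes lie within 0.5 of 0.

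The enzymes that set new DNA methylation rose, and those that copy it did not pass the test (50% called, against 53.5% of all genes). DNMT3A, a de novo DNA methyltransferase (chromosome 2, 25227855 to 25342590, GRCh38), stood at 12.0 and 12.1 CPM in the group labelled Bromo+/- and at 4.68 and 5.53 CPM in the control libraries. The lower of the former was above the higher of the latter by more than the spread within either group. DNMT3A rose 2.34-fold (log2 fold change 1.23, SE 0.17, adjusted p = 2.16e-11, edgeR). DNMT3B, its paralogue with the same reaction (chromosome 20, 32762385 to 32809356), stood at 7.17 and 6.64 CPM against 2.58 and 3.20 CPM. It rose 2.38-fold (1.25, SE 0.22, adjusted p = 9.54e-08, edgeR). Both remained genes of low abundance, with 27 to 147 counts per library. Their ratio, per kb of exon, was 1.554 and 1.432 of DNMT3B to DNMT3A in the group labelled Bromo+/- against 1.431 and 1.501, so that the groups overlapped.

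DNMT1, the maintenance methyltransferase, was at 325 and 319 CPM against 313 and 312 CPM, a log2 fold change of 0.04 (SE 0.05). UHRF1, which brings DNMT1 to newly copied DNA, was at 108 and 98.8 CPM against 99.8 and 111 CPM (-0.03, SE 0.06). Neither passed. A list of 22 S phase and proliferation genes, with which both of these are known to be expressed, summed to 6062 and 6095 CPM against 6376 and 6395 CPM. In that list 4 rose, among them TOP2A (0.27), and 7 fell, including CDC6 (-0.43), CDT1 (-0.45) and MKI67 (-0.27). Calls made up 50% of the list, against 53.5% of all genes.

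Of the 3 TET enzymes, which oxidise methylated cytosine, 100% were called, against 53.5% of all genes, and TET3 and TET2 fell. TET3 (chromosome 2, 73986404 to 74108176) stood at 41.6 and 40.8 CPM against 52.0 and 57.9 CPM and fell by 0.42 on the log2 scale (SE 0.08, adjusted p = 1.31e-06, edgeR). TET2 stood at 19.5 and 23.0 CPM against 26.9 and 26.6 CPM and fell by 0.34 (SE 0.10). TET1 had few counts, 22 and 12 against 9 and 4, and was called higher (1.27, SE 0.45, adjusted p = 0.0112, edgeR). Since it entered the test only through the libraries labelled Bromo+/-, its direction was fixed by the filter and is no support for a difference among the TET genes. The call for TET1 ended with the DESeq2 Wald test, without replicate 1 of the group labelled Bromo+/- and without control replicate 2, with an adjusted p of up to 0.324 and a log2 fold change between 0.73 and 2.02. The call for TET2 ended without replicate 1 of the group labelled Bromo+/- and by DESeq2 (adjusted p of up to 0.123). Summed over the 3 genes the level was 62.8 and 64.8 CPM against 79.8 and 84.8 CPM. The groups did not overlap, as was so for 75.2% of all single genes tested. Most of this sum was TET3, so it adds no separate evidence.

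**Figure D2:**
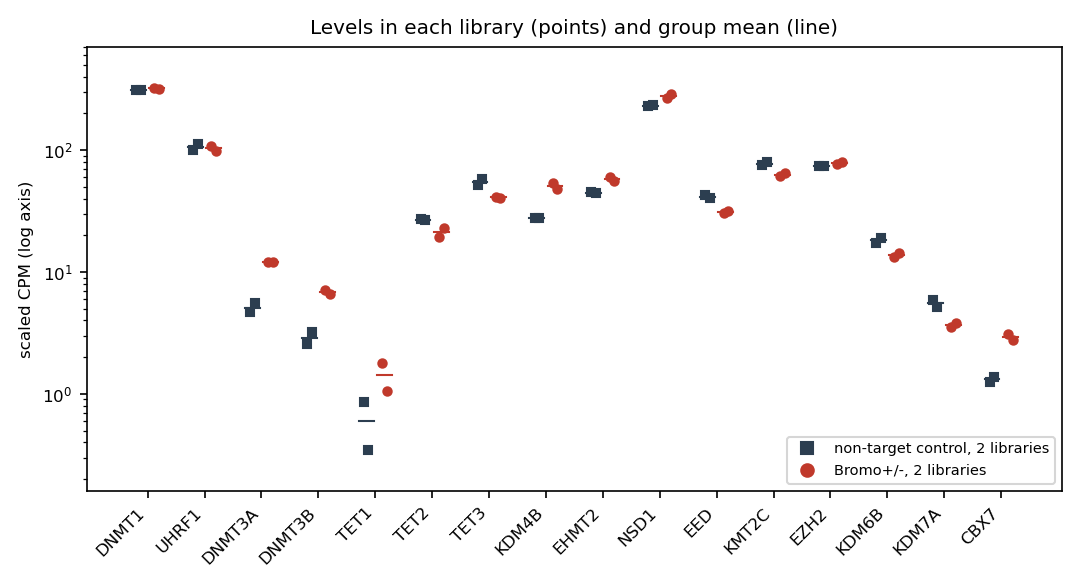
Scaled CPM (y axis, log scale) of 16 genes in each of the 4 libraries, with control libraries as squares, libraries labelled Bromo+/- as circles and group means as short lines. DNMT3A and DNMT3B are separated between groups by more than their spread, DNMT1 is at 312 to 325 CPM in all 4 libraries, and TET1 varies within each group.

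Of 13 tested partners of DNA methylation and readers of methylated CpG, 4 rose and 5 fell, with a median of -0.08. Calls made up 69.2%, against 53.5% of all genes. MBD2 stood at 98.2 and 99.1 CPM against 133 and 139 CPM and fell by 0.46 on the log2 scale (SE 0.06). MBD1 (-0.42), which like MBD2 binds methylated CpG, and the methyl-CpG binding zinc finger protein ZBTB38 (-0.35) also fell. DNMT3L, a cofactor of the de novo enzymes that is known from germ cells, had no count in any library.

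Among the Polycomb genes, calls differed between subunits of the same complex, and whether subunits moved together was not tested. In PRC2, EED, which binds methylated H3K27 (chromosome 11, 86244544 to 86278813), stood at 30.2 and 31.6 CPM against 42.6 and 40.3 CPM and fell by 0.42 on the log2 scale (SE 0.09, adjusted p = 8.24e-06, edgeR). SUZ12, the scaffold of the complex, stood at 67.1 and 76.8 CPM against 58.8 and 63.9 CPM and was called higher (0.23, SE 0.07), a call that ended with the DESeq2 Wald test, without replicate 2 of the group labelled Bromo+/- and without control replicate 1. A partial copy of this gene, SUZ12P1, held 54 to 91 counts per library, which leaves the split of reads uncertain. The catalytic subunits did not pass: EZH2 stood at 76.7 and 79.5 CPM against 74.6 and 74.4 CPM (0.07, SE 0.07), and EZH1 had a log2 fold change of 0.05. Per kb of exon, EZH2 was 4.14 and 4.43 times the level of EZH1 in the group labelled Bromo+/-, against 4.13 and 4.30 times. Of 9 tested accessory genes of PRC2, 3 rose and 1 fell (44.4%, against 53.5% of all genes), with a median of 0.12. PHF19, which brings PRC2 to chromatin, rose to 255 and 236 CPM from 139 and 140 CPM (0.82, SE 0.06), and LCOR, whose locus also encodes a PRC2 accessory protein, fell (-0.37).

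In PRC1, the E3 ligases RING1 (-0.03) and RNF2 (-0.25) and the ring finger partner BMI1 (-0.10) did not pass. The readers of methylated H3K27 gave the called members (33.3% of 6 PRC1 genes, against 53.5% of all genes). CBX7 rose from a low level, with 38 and 31 counts against 13 and 16 (log2 fold change 1.15, SE 0.31, adjusted p = 9.10e-04, edgeR). By DESeq2's Wald test this call ended, at an adjusted p of 0.0675. CBX8 stood at 14.4 and 12.9 CPM against 10.0 and 12.0 CPM and was called higher by a small margin (0.31, SE 0.14, adjusted p = 0.0479, edgeR), and that call ended under 6 of 12 alternatives. CBX2 stood at 47.4 and 47.4 CPM against 43.8 and 42.3 CPM and did not pass. Per kb of exon the level of CBX7 was 0.12 of that of CBX8 in each library labelled Bromo+/-, against 0.07 and 0.06. Of 20 tested other genes of PRC1 and of its opposing deubiquitinase, 7 rose and 5 fell, with a median of 0.09. Calls made up 60%, against 53.5% of all genes. CBX6, a further reader of the same family, rose to 118 and 123 CPM from 52.5 and 48.6 CPM (1.26, SE 0.07). PCGF2 (0.82), a ring finger paralogue of BMI1, rose, as did the corepressors BCORL1 (0.96) and BCOR (0.62).

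Of the 6 H3K4 methyltransferases 2 were called higher and 3 lower (83.3%, against 53.5% of all genes). KMT2C, a writer of enhancer H3K4 methylation (chromosome 7, 152134922 to 152436005), stood at 60.9 and 65.0 CPM against 74.8 and 80.2 CPM and fell by 0.30 on the log2 scale (SE 0.07, adjusted p = 1.16e-04, edgeR). Its paralogue KMT2D stood at 146 and 164 CPM against 163 and 186 CPM, so the groups overlapped by a little, and was called lower (-0.17, SE 0.06). KMT2B was called lower (-0.16) and KMT2A did not pass (0.07). The SETD1 enzymes, which place most promoter H3K4 methylation, were called higher: SETD1B (0.24, SE 0.08) and SETD1A (0.18, SE 0.08). Of these 5 calls that of KMT2C held under all 12 alternatives, and the calls of the other 4 ended without control replicate 2 and with the DESeq2 Wald test, among others. Among 13 tested partners of these complexes 3 rose (23.1%, against 53.5% of all genes called in either direction), with a median of -0.003. These were PSIP1 (0.74), MEN1 (0.51) and BOD1 (0.44). The shared core subunits WDR5, RBBP5 and DPY30 did not pass.

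Among 4 writers of H3K36 and H3K79 methylation, NSD1 rose and NSD2 and DOT1L were called lower (75%, against 53.5% of all genes). NSD1, which dimethylates H3K36 (chromosome 5, 177133025 to 177300215), stood at 266 and 291 CPM against 230 and 234 CPM (log2 fold change 0.27, SE 0.05, adjusted p = 4.90e-06, edgeR). NSD2, which places the same mark, stood at 365 and 353 CPM against 403 and 408 CPM (-0.18, SE 0.05). DOT1L, which methylates H3K79, stood at 42.1 and 44.4 CPM against 49.9 and 53.2 CPM (-0.26, SE 0.08). The calls for NSD2 and DOT1L ended without control replicate 2 and with library size alone, and that of DOT1L also with the DESeq2 Wald test. SETD2, which trimethylates H3K36, did not pass (0.06).

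Of the 5 H3K9 methyltransferases, the pair that acts as a heterodimer was called (40%, against 53.5% of all genes). EHMT2, also known as G9a (chromosome 6, 31879759 to 31897687), stood at 60.1 and 55.5 CPM against 44.9 and 44.8 CPM and rose by 0.37 on the log2 scale (SE 0.08, adjusted p = 1.48e-05, edgeR). Its partner EHMT1 stood at 128 and 125 CPM against 109 and 115 CPM and was called higher (0.17, SE 0.06), a call that ended with the DESeq2 Wald test and without either control replicate. SETDB1 (-0.18), SUV39H1 (-0.17) and SUV39H2 (0.10), enzymes of silent heterochromatin, did not pass. Exons of SETDB1 overlap those of CERS2 on the other strand over 13.4% of their length, and without a stated strand setting these reads cannot be told apart. Of 11 tested readers and cofactors of H3K9 methylation 2 rose and 2 fell (36.4%, against 53.5% of all genes), with a median of 0.02. WIZ, which binds the EHMT enzymes, rose (0.35), and the other 3 calls ended under 6 of 12 alternatives each.

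The demethylases of H3K9 gave the call with the smallest p among the 44 genes. KDM4B (chromosome 19, 4969113 to 5153595) stood at 53.2 and 47.5 CPM against 27.9 and 27.8 CPM and rose 1.81-fold (log2 fold change 0.86, SE 0.09, adjusted p = 8.55e-19, edgeR). Its paralogue KDM4C stood at 29.3 and 31.2 CPM against 36.3 and 37.3 CPM and was called lower (-0.29, SE 0.09), a call that ended with the DESeq2 Wald test and without control replicate 2. KDM3A (0.06) did not pass. Neither did KDM4A (0.18), which was called higher with upper quartile scaling, with library size alone and without control replicate 1. The promoters of KDM4B and KMT2C are shown because these are 1 rising and 1 falling gene with calls that held under all alternatives and with a window next to the outermost annotated start and nearly free of exons, as was found for 2 of the 8 such genes. Each line gives the 250 bases before the start from RefSeq (GRCh38.p14), at chr19:4968863-4969112 on the plus strand and chr7:152436004-152436253 on the minus strand, with capitals for the GC box GGGCGG on either strand.
KDM4B: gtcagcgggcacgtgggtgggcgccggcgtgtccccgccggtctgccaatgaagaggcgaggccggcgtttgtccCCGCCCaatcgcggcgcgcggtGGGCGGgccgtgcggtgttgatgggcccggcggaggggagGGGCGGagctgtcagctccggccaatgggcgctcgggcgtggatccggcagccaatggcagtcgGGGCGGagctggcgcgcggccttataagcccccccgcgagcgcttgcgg
KMT2C: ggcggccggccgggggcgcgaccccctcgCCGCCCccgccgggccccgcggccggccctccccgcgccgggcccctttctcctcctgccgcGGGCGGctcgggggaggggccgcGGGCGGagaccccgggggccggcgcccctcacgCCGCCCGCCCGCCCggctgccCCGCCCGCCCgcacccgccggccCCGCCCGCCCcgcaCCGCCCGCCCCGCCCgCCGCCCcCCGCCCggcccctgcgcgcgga
The window of KDM4B had 36 CpG and 4 GC boxes, and that of KMT2C had 48 CpG and 15 GC boxes, overlapping matches included. Both are rich in CpG, and a relation of CpG content to direction was not tested. Windows were found for 40 of the 44 genes, with a median of 23 CpG against 11 over all 35116 windows, which include those of non-coding genes. A GC box was present in 27 of the 40 (67.5%, against 42.6% of all). The motif CACCTG, an E-box bound by repressors of epithelial genes, was present in 7 of the 40 (17.5%, against 17.5%), and in neither window shown. These are matches of letters and not measured binding.

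KDM6B and KDM7A, the H3K27 demethylases among the 44 genes, were called lower, as were 27.1% of all genes. KDM6B stood at 13.4 and 14.4 CPM against 17.4 and 18.9 CPM and was called lower (log2 fold change -0.39, SE 0.12, adjusted p = 0.00394, edgeR). KDM7A, which acts on H3K9 and H3K27, was scarce, with 43 and 43 counts against 62 and 60 (-0.60, SE 0.21, adjusted p = 0.0120, edgeR). KDM6A, the X-linked relative of KDM6B and not one of the 44 genes, stood at 33.2 and 35.1 CPM against 40.3 and 44.4 CPM and was called lower as well (-0.31, SE 0.09). The calls for KDM6B and KDM7A ended with the DESeq2 Wald test. The calls for KDM6B and KDM6A ended without control replicate 2, and that for KDM7A without replicate 1 of either group. In each of these genes the groups did not overlap, as was so for 75.2% of all genes tested.

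Of the 4 H3K4 demethylases, KDM5B and KDM5C were called higher (50%, against 26.4% of all genes called higher and 53.5% in either direction). KDM5B stood at 52.7 and 56.5 CPM against 47.8 and 38.6 CPM and rose by 0.34 on the log2 scale (SE 0.08), and KDM5C stood at 229 and 222 CPM against 210 and 197 CPM (0.15, SE 0.05). Neither call held without control replicate 2, and that for KDM5C also ended by DESeq2 and without replicate 1 of the group labelled Bromo+/-. KDM5A (0.03) and the flavin-dependent enzyme KDM1A (-0.06) did not pass. Nor did KDM2A (-0.08) and KDM2B (-0.04), the only genes grouped here as H3K36 demethylases. For KDM2A and KDM2B DESeq2 also made 0 calls, and 0 reached an unadjusted p of 0.05. KDM1A was the most abundant of the 44 genes per kb of exon, at 39.7 scaled CPM per kb in the controls and 38.2 in the libraries labelled Bromo+/-. Of 13 tested further demethylases and KDM1A partners 2 rose and 5 fell (53.8%, against 53.5% of all genes), with a median of -0.10. KDM1B, the paralogue of KDM1A, fell to 19.6 and 21.6 CPM from 35.6 and 35.4 CPM (-0.79, SE 0.10), and JMJD6 (-0.38) fell too.

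Among the genes described here the largest called changes were in those of low abundance, a pattern that is partly set in advance. Per kb of exon the 5 lowest genes in the controls were TET1 at 0.0649, CBX7 at 0.176, DNMT3A at 0.425, KDM7A at 0.589 and DNMT3B at 0.624 scaled CPM per kb. The called changes of at least 2-fold were those of DNMT3A, DNMT3B and CBX7, which rose, and of TET1, whose direction the filter fixed. The 5 highest were KDM1A, DNMT1, KDM5C, UHRF1 and NSD2, from 39.7 to 20.5 scaled CPM per kb, and their log2 fold changes ran from -0.18 to 0.15. Low counts carry wide errors: the SE was 0.45 for TET1 and 0.31 for CBX7, against 0.05 for DNMT1. A change in TET1 or CBX7 therefore had to be large to be called, and one in DNMT1 did not. The level in the controls, by which the genes are ranked, is also the denominator of the fold change. The pattern was not compared with that over all genes tested, so it is no result about abundance. KDM4B, at 1.89 scaled CPM per kb in the controls, had the largest called change outside the lowest 5 genes.

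**Figure D3:**
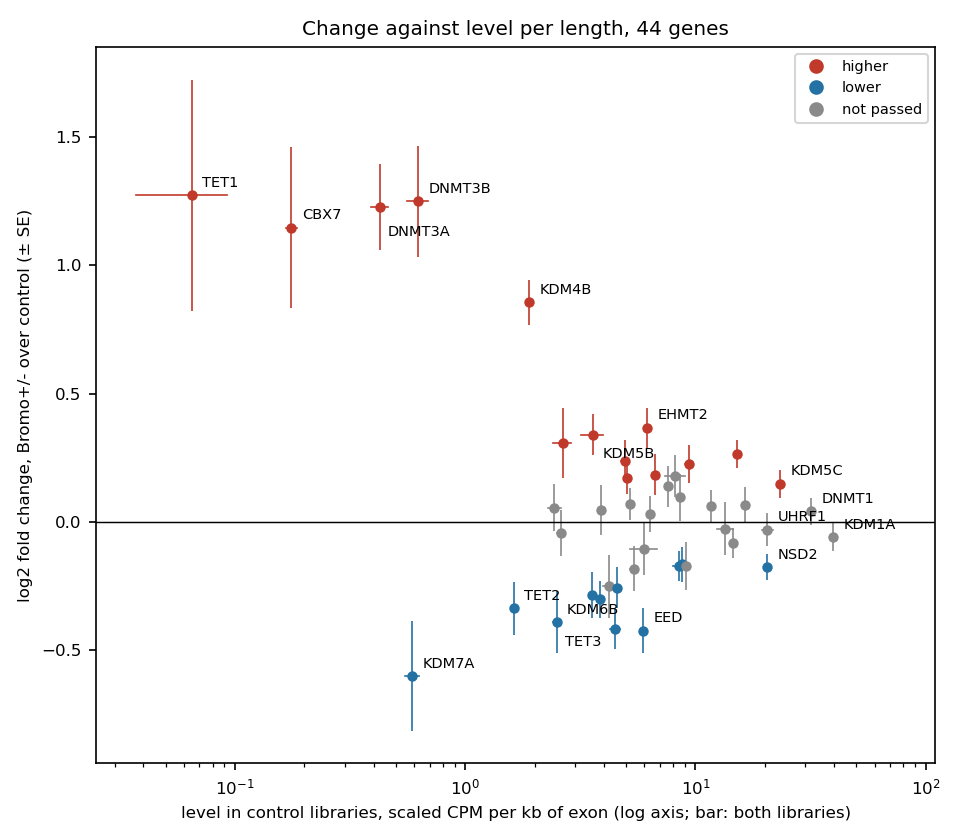
Log2 fold change (y axis, ± SE) against the level in the controls (x axis, log scale, scaled CPM per kb of exon, with a bar joining both libraries) for the 44 genes, coloured by call. TET1, CBX7, DNMT3A and DNMT3B stand at the left with the largest values, and KDM1A and DNMT1 at the right lie near 0. The level in the controls is also the denominator of the fold change, so the axes are not independent.

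Enzymes outside the 44 genes that use or supply the same cofactors showed mixed changes. None of 9 tested genes of protein arginine methyltransferases passed, with log2 fold changes from -0.13 to 0.18 (edgeR and DESeq2, 0 calls, and 0 at an unadjusted p of 0.05). With upper quartile scaling or library size alone 3 of them were called higher, and without replicate 1 of the group labelled Bromo+/- 1 was called higher and 2 lower. Of 15 tested further SET-domain enzymes 2 rose and 6 fell (53.3%, against 53.5% of all genes), and their median was -0.17. SMYD2 (-0.38) and PRDM2 (-0.34) were lower and SMYD3 (0.64) was higher. The call for PRDM2 ended without control replicate 2. Of 19 tested genes that supply the methyl donor or 2-oxoglutarate, the cosubstrate of TET and most demethylases, 6 rose and 3 fell. That was 47.4%, against 53.5% of all genes, with a median log2 fold change of 0.01. IDH1, which makes 2-oxoglutarate in the cytosol, fell to 100 and 104 CPM from 151 and 147 CPM (-0.55, SE 0.06). D2HGDH, which turns D-2-hydroxyglutarate into 2-oxoglutarate, rose to 15.7 and 12.8 CPM from 4.97 and 5.71 CPM (1.41, SE 0.16). NNMT, which consumes the methyl donor, rose by 0.39 and MAT2A, which makes it, rose by 0.22. Over the 143 tested genes of the 10 lists, 33 rose and 33 fell (46.2%, against 53.5% of all genes).

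**Figure D4:**
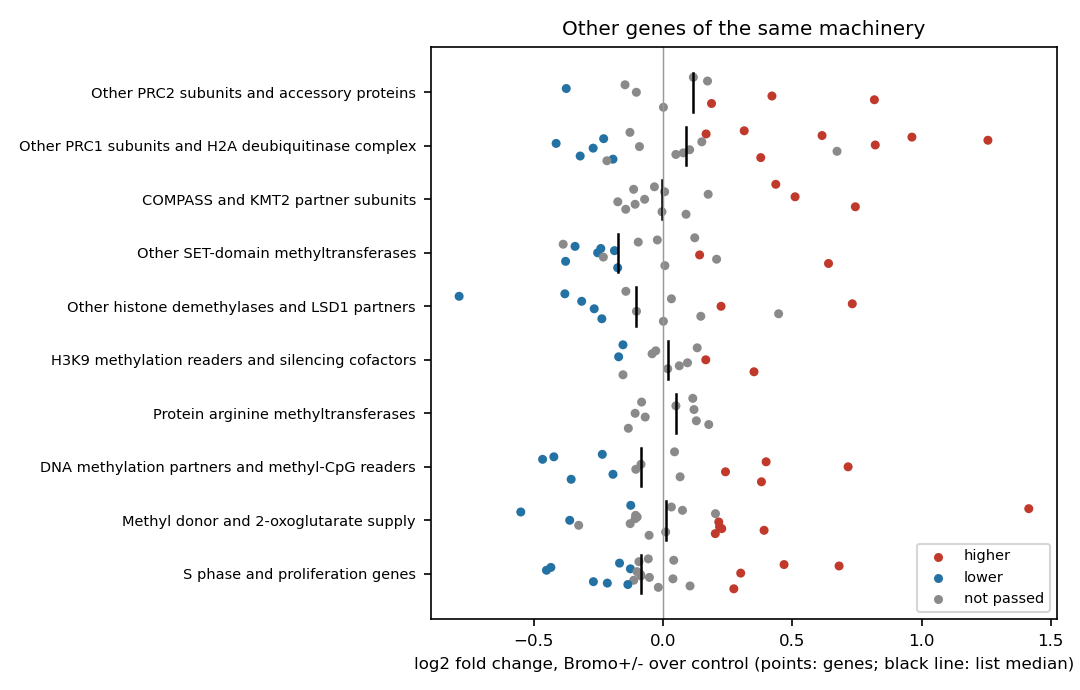
Log2 fold change (x axis, libraries labelled Bromo+/- over control) of each tested gene in 10 lists of related genes (y axis), coloured by call, with a black line at each list's median. D2HGDH at 1.41 and CBX6 at 1.26 are the farthest from 0, and no arginine methyltransferase was called.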

How the data were processed

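The table deposited by the authors holds raw counts of reads for each Ensembl gene, and its exon length. Libraries were made with a stranded mRNA kit, per the labels' protocols. STAR, GRCh38 and featureCounts 1.5.2 are named in the submitters' processing notes. The STAR version, annotation release, strand setting and handling of multi-mapping reads are not stated there. Columns were matched by name, the WT columns to the non-target control as the only other group. Of 58233 identifiers, 57392 had a symbol in a gene name table. Counts were tested in R 4.3.3 with edgeR 4.0.16 (filterByExpr, 13179 genes, TMM factors of 0.968 to 1.03, glmQLFit with robust estimation and glmQLFTest, 2 residual degrees of freedom, Benjamini-Hochberg adjustment over all genes, threshold 0.05). The SE is the size of the log2 fold change divided by the square root of F. The procedure was tested on simulated data with known changes. Replicates correlated at 0.995 (Pearson, log2 CPM, across genes) and differed by more than sampling noise.

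All 44 members are named, and from each of 10 lists of related genes up to 4 called genes with the smallest adjusted p, with WDR5, RBBP5 and DPY30 named after their values were seen. A gene that this rule names is not reported here. The members and lists were chosen with earlier results of these data known. Exons of 10 members overlap another gene with at least 10 counts. Called members among them include DOT1L (4.7% of exon length, with PLEKHJ1), KMT2D (1.1%, with PRKAG1) and CBX7 (17.9%, with an unnamed gene). BMI1, which did not pass, shares 23.3% of its exon length with COMMD3-BMI1, which had 0 counts. Alternatives were 3 other scalings, 2 filters, DESeq2 1.42.0, limma-voom (limma 3.58.1), a replicate block, and each library left out.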

Additional observations from a re-analysis of the deposited data

How the results depend on the processing

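Of the 25 calls among the 44 genes, 8 held under all 12 alternatives (EED, KMT2C, NSD1, EHMT2, KDM4B, DNMT3A, DNMT3B and TET3), and the other 17 ended under at least 1. None of the 25 changed direction. The DESeq2 Wald test called 6 members higher and 4 lower, against 14 and 11, and 2292 of all genes higher and 2592 lower, against 3485 and 3570. CBX2 and KDM4A gained a call with upper quartile scaling and with library size alone, KMT2A, SETD2 and DNMT1 with library size alone, and KDM4A also without control replicate 1. With library size alone 7 members were lower, and of the related genes 50 were higher and 20 lower, against 33 and 33. The related genes lower were 21 with the DESeq2 Wald test. Leaving out each library in turn gave 8 to 13 members higher and 5 to 10 lower, the fewest without control replicate 2, and 2711 to 3218 of all genes higher and 2840 to 3423 lower. Related genes numbered 26 to 34 higher and 21 to 36 lower. Of 42 counts for single lists, 30 moved by more than 1.5 times under some alternative. The cause was not tested.

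With the replicate number as a block 13 members were higher and 12 lower. CBX8 lost its call and SETDB1 gained one. Deviations of same-numbered libraries correlated at 0.05 across all genes and at 0.159 across genes above 10 CPM, and no label says that the number marks anything shared.

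Some members that did not pass changed sign. With upper quartile scaling RING1 came to 0.0339, KDM1A to 0.0017, KDM2B to 0.0165 and UHRF1 to 0.03, and with library size alone RING1 came to 0.0583, KDM1A to 0.026, KDM2A to 0.0035, KDM2B to 0.0408 and UHRF1 to 0.0543. With each library left out in turn, RING1 ran from -0.1395 to 0.0791, BMI1 from -0.2814 to 0.10, KDM1A from -0.127 to 0.0057, KDM5A from -0.0249 to 0.0834, KDM3A from -0.10 to 0.1859 and UHRF1 from -0.1096 to 0.0485. Depth limits TET1 and CBX7, which had at most 38 counts in any library.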

Other observations

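MTAP, which recycles methylthioadenosine, a by-product of polyamine synthesis, was too scarce to be tested, with 2 and 6 counts in the group labelled Bromo+/- against 1 and 2. PRMT5, whose enzyme is known to be inhibited by methylthioadenosine, stood at 118 CPM or more in all 4 libraries and did not pass (adjusted p = 0.131, edgeR).

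Some pairs of paralogues were compared by their ratio within each library. Per kb of exon, TET2 stood at 0.35 and 0.42 of the level of TET3 in the group labelled Bromo+/- against 0.39 and 0.34 in the controls, and KMT2C stood at 0.42 and 0.40 of the level of KMT2D against 0.47 and 0.44. SUV39H2 stood at 1.16 and 1.10 times the level of SUV39H1 against 0.87 and 1.00 times, without overlap of the groups although neither gene passed. For single genes, the groups did not overlap for 75.2% of all those tested. With 2 libraries per group the smallest two-sided p of an exact permutation test is 0.333, so these ratios are values without a test.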
